A study of Mus musculus with 2 samples.

Results

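Open chromatin was examined at the 4 mouse Hox gene clusters in NMuMG, a line of epithelial cells that derives from mouse mammary gland. DNaseI-seq marks open chromatin by a brief DNaseI digestion of nuclei, after which short fragments are sequenced and places with many fragments are called as peaks. All cells were kept for 6 h without serum and insulin and then received for 2 h either 5 ng/ml TGFβ1, the cytokine under study, or the carrier alone (vehicle). There was 1 sample and 1 peak list per condition, so no spread between replicates is known, no test between the conditions was made, and each difference below is one between these lists. The carrier was dilute HCl with BSA in the treatment protocol and Tris-HCl with BSA in the sample label.

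The members were the 38 listed Hox genes and the peaks that lay from 50 kb before the first to 50 kb after the last listed gene of each cluster. The windows were chr6:52062350-52260874 for HoxA, chr11:96005630-96279570 for HoxB, chr15:102701534-102917274 for HoxC and chr2:74456367-74653200 for HoxD (mm9), together 885 kb. They held 5 of the 17784 distinct peaks of the vehicle list and 7 of the 22600 of the TGFβ 2 h list. Of the other genes that start in the windows, only some are described.

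Hox genes encode homeodomain transcription factors that give cells their position along the body axis, and they lie in each cluster in the order in which they are used from head to tail. Genes with the same number in different clusters are paralogs that arose by duplication of an ancestral cluster. Where a Hox cluster is not in use, Polycomb complexes usually cover it as one repressed domain, and trithorax proteins oppose them. In the mammary gland Hoxa9, Hoxb9 and Hoxd9 are known to act together in the growth of the gland during pregnancy.

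Few bases of the clusters were in peaks, and the sequences that show this best are those of the few open sites and of some starts that carried no peak. The first sequence is the middle of the HoxC site that was called in both lists, between Hoxc9 and Hoxc8. Capitals mark AGGTGGC, a short core of the recognition word of the insulator protein CTCF.

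HoxC site of both lists, chr15:102817966-102818265, plus strand: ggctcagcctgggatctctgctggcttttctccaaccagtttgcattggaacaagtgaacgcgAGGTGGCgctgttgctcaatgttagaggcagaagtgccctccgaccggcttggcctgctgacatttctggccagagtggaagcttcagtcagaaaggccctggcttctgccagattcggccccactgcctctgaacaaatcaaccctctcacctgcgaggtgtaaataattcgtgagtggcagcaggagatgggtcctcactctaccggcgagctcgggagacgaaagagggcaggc

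The next sequences are the 200 bases around the midpoints of the vehicle-only peak beside Hoxa6 and of the TGFβ 2 h-only peak between Hoxa11 and Hoxa13. They are shown as sites of one list alone that lay within the row of HoxA genes and outside untranslated exons. They hold no capitals, since none of the searched words was found in them.

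vehicle-only site beside Hoxa6, chr6:52161845-52162044, plus strand: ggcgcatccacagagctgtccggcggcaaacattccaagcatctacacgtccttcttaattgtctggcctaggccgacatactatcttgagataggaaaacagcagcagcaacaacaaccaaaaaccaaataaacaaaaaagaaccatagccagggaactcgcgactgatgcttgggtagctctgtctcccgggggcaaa
TGFβ 2 h-only site between Hoxa11 and Hoxa13, chr6:52203616-52203815, plus strand: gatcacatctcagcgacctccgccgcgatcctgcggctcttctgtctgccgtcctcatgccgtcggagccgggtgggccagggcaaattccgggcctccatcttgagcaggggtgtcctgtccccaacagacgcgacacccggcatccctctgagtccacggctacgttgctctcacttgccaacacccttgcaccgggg

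The last sequences are the 150 bases before the 5′ ends of Hoxa7, the gene with an open start in both lists, and of Hoxa13 and Hoxd13, which had none. Capitals mark CpG dinucleotides, the base step that is dense in CpG islands. They numbered 10 for Hoxa7, 25 for Hoxa13 and 21 for Hoxd13. The median was 7 over the 38 Hox genes and 6 over 22208 protein-coding genes. In these 150 bases the closed starts of Hoxa13 and Hoxd13 were therefore richer in CpG than the open start of Hoxa7. They are not typical of closed starts: with a median of 7, most Hox genes had fewer CpG there than Hoxa7. The Hoxa7 peak reached only into the first of these bases, to chr6:52171899 (vehicle) and chr6:52171892 (TGFβ 2 h).

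Hoxa7 upstream, chr6:52171854-52172003, minus strand: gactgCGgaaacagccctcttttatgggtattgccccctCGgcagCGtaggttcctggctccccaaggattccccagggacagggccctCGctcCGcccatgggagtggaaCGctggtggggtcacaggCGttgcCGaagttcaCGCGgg
Hoxa13 upstream, chr6:52210875-52211024, minus strand: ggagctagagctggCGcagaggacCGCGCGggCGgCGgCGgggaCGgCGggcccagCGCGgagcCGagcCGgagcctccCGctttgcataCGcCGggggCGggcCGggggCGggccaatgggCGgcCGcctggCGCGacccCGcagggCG
Hoxd13 upstream, chr2:74506217-74506366, plus strand: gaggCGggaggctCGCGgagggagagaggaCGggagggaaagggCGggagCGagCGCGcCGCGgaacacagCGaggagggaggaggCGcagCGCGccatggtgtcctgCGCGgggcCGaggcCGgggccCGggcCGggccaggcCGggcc

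Hoxa7 was the one listed Hox gene whose start was open in both lists. A start was called open where a peak overlapped the 1000 bp on either side of any annotated transcript start of the gene. In the vehicle list Hoxa3, Hoxa6 and Hoxa7 had an open start, which is 3 of 38 genes (7.89%, Wilson 95% interval 2.72 to 20.8%). Over all protein-coding genes the share with an open start was 45.8% in that list. In the TGFβ 2 h list Hoxa7 alone had one (2.63%, interval 0.466 to 13.5%), against 46.4% of protein-coding genes. Open in both lists was 1 of 38 Hox genes, against 44% of protein-coding genes. Open in the vehicle list alone were 2 of 38, Hoxa3 and Hoxa6, against 1.86%, and open in the TGFβ 2 h list alone 0 of 38, against 2.48%. The other 35 Hox genes had no open start in either list, while 48.3% of protein-coding genes had one in at least 1 list. These intervals cover counting only, and neighbouring genes of a cluster share peaks, so the genes are not independent.

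All open starts lay in HoxA, in paralog groups 3, 6 and 7. None of the 10 listed genes of HoxB, the 9 of HoxC or the 9 of HoxD had one in either list. Among the 4 paralogs of group 9, Hoxa9 was nearest to a peak, at 4.25 kb in the vehicle list and 4.26 kb in the TGFβ 2 h list. Hoxc9 was 10.5 kb away in both lists. Hoxb9 lay 36.3 kb from a vehicle peak and 130 kb from a TGFβ 2 h peak, and Hoxd9 lay 118 kb away in both. None of the group 13 genes, which pattern the ends of limbs and trunk, had an open start: their distances were 38.9 kb (vehicle) and 6.85 kb (TGFβ 2 h) for Hoxa13, 40.5 and 52.8 kb for Hoxb13, 66.4 kb in both lists for Hoxc13, and 88.9 and 89 kb for Hoxd13.

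**Figure D1:**
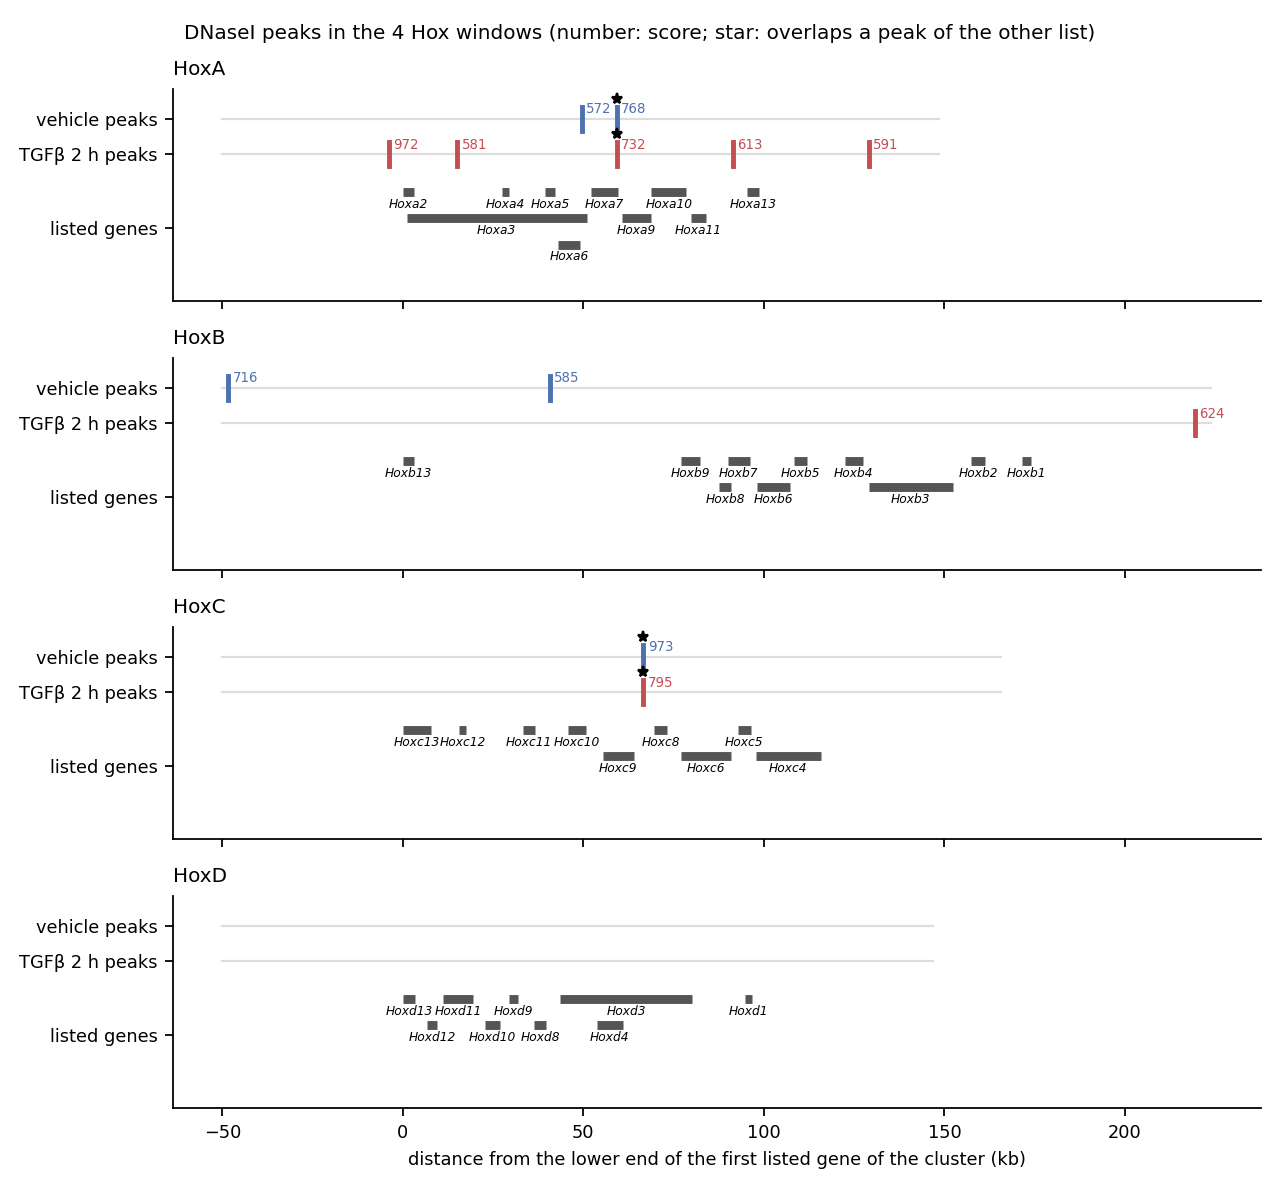
Peaks of the vehicle list (blue) and the TGFβ 2 h list (red) along the 4 Hox windows, with the listed genes as grey bars; the x axis is the distance in kb from the lower end of the first listed gene, the number beside each peak is its score, and stars mark peaks that overlap a peak of the other list. HoxA holds 2 vehicle and 5 TGFβ 2 h peaks, while HoxD holds none in either list.

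HoxA, which spans 98.5 kb from Hoxa2 to Hoxa13, had 2 of the 5 vehicle peaks in its window, as many as HoxB, and 5 of the 7 TGFβ 2 h peaks. The Hoxa7 peak covered chr6:52171394-52171899 in the vehicle list and chr6:52171394-52171892 in the TGFβ 2 h list, so the pair began at the same base and shared 499 bp. It contained the 5′ end of Hoxa7 and an untranslated exon of that gene. Its score was 768 for vehicle and 732 for TGFβ 2 h, which placed it above 28.7% and 30.9% of the peaks of its list. Scores rank peaks only within a list, so the scores themselves are not compared.

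A second vehicle peak, chr6:52161644-52162246, lay in an intron of Hoxa3 and 0.288 kb from a start of Hoxa6. Hoxa3 acts in the neck and pharyngeal arches and Hoxa6 in the thorax. This single peak of 603 bp gave both genes their open start, for Hoxa3 through upstream transcript starts at 0.819 kb or more. Its score of 572 was above that of 5.22% of the vehicle list. The nearest TGFβ 2 h peak was 9147 bp away, at Hoxa7. The Hoxa6 and Hoxa3 calls were thus made on 1 low-scoring peak, and both were lost when the distance to a start was limited to 250 bp.

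The TGFβ 2 h list had 4 HoxA peaks without a vehicle counterpart. The one at chr6:52108100-52108996 was the widest (897 bp) and highest-scoring (972) Hox peak of that list, above 53.5% of all its peaks. It covered the start and an exon of the noncoding transcript Gm15051 and lay 6.42 kb from the start of Hoxa2, a gene of the hindbrain and its neural crest. The nearest vehicle peak was 52647 bp away. The remaining 3 were weaker, with scores of 581, 613 and 591, above 8.13%, 14.1% and 10.1% of the list.

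Of these, chr6:52127210-52127724 lay in an intron of Hoxa3, contained the start of 5730596B20Rik and was 4.56 kb from the nearest Hoxa3 start. The peak at chr6:52203489-52203942 lay between Hoxa11, a gene of limb and uterus, and Hoxa13, at 6.85 kb from the latter. The peak at chr6:52241281-52241613 was intergenic, 30.4 kb beyond Hoxa13, and was the single Hox peak that stood in 1 deposited row. These 3 low-scoring peaks make the difference in number at HoxA: with the TGFβ 2 h list shortened by score to the length of the vehicle list, 2 HoxA peaks were left in each, for TGFβ 2 h those at Gm15051 and Hoxa7.

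HoxB spans 174 kb from Hoxb13 to Hoxb1 and had no site that was called in both lists. The vehicle list had a peak at chr11:96007013-96007485 (score 716) in an intron of Ttll6, 48.1 kb from Hoxb13, and one at chr11:96096166-96096491 (score 585) in the long stretch between Hoxb13 and Hoxb9, 36.3 kb from Hoxb9. The TGFβ 2 h list had a single peak, chr11:96274753-96275253 (score 624), 47.2 kb beyond Hoxb1. From Hoxb9 to Hoxb1 neither list had a peak. The vehicle list had a stretch of 512 kb without a peak that held 9 of the 10 listed HoxB genes. In the TGFβ 2 h list no peak lay between Hoxb13 and Hoxb1.

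The peaks nearest to a window edge were at HoxB. The Ttll6 peak of the vehicle list lay 1.38 kb inside it, and the Hoxb1-side peak of the TGFβ 2 h list lay 4.32 kb inside. Just outside, at 2.78 kb, the vehicle list had a peak of score 864, and at 2.76 kb the TGFβ 2 h list had one of score 1000. The vehicle-only Ttll6 peak was 4147 bp from that TGFβ 2 h peak.

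HoxC spans 116 kb and held 1 peak in each list, at the same place. It covered chr15:102817942-102818339 in the vehicle list and chr15:102817946-102818286 in the TGFβ 2 h list, with 341 bp in common, so the TGFβ 2 h peak lay wholly within the vehicle peak. The site was in an intron of the noncoding transcript Gm20398, past the end of Hoxc9 and 2.71 kb (vehicle) or 2.77 kb (TGFβ 2 h) before Hoxc8. Its score of 973 was the highest of the vehicle Hox peaks and above 45% of that list. In the TGFβ 2 h list the score was 795, above 38% of the list. No listed HoxC gene had an open start, and distances grew from Hoxc8 outward to 31 kb at Hoxc4 (vehicle) and 66.4 kb at Hoxc13.

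HoxD spans 96.8 kb from Hoxd13 to Hoxd1 and held no peak in either list. The peak-free stretch was 246 kb long in both lists and contained all 9 listed HoxD genes. It ended at the genes that flank the cluster. On one side stood a peak at the start of Lnp, 38.9 kb from the window in the vehicle list and 39 kb in the TGFβ 2 h list, and on the other a peak at the start of Mtx2, 10.4 kb away in both. All 4 of these border peaks had the ceiling score of 1000. With a count of 0 in a window of 197 kb, the exact Poisson 95% upper limit was 18.7 peaks per Mb. HoxA was bordered in the same way by ceiling-score peaks at the starts of Skap2 and Hibadh, at 99.2 and 329 kb from its window in the vehicle list.

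**Figure D2:**
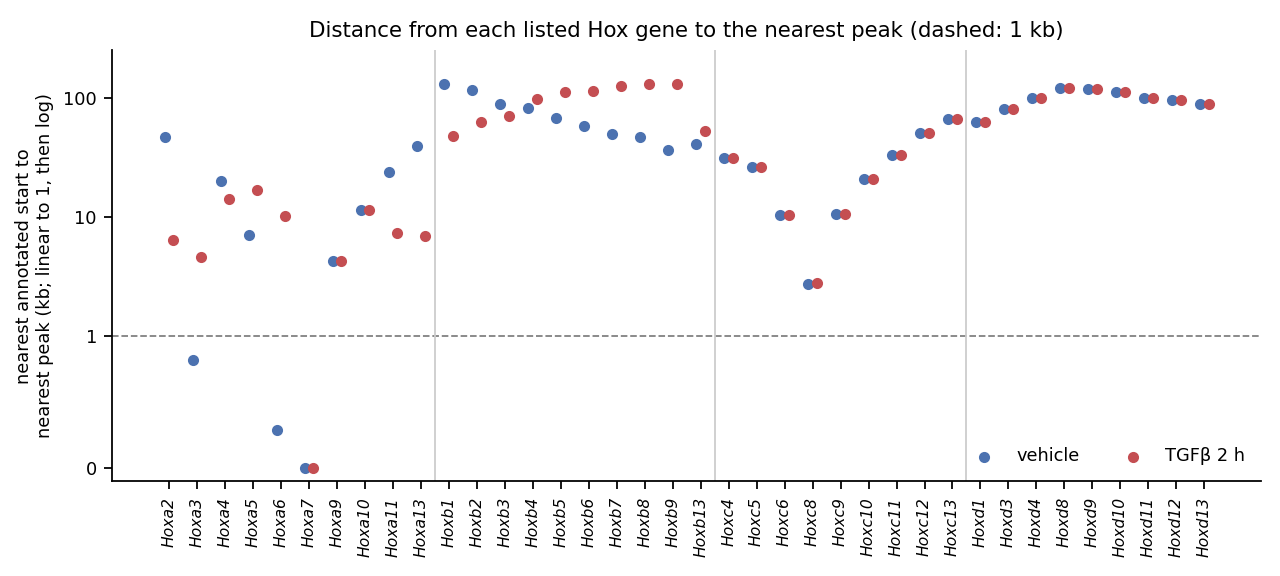
Distance in kb from the nearest annotated start of each of the 38 listed Hox genes to the nearest peak of the vehicle (blue) and TGFβ 2 h (red) list, on an axis that is linear to 1 kb and logarithmic above, with the dashed line at 1 kb. HoxC and HoxD values nearly coincide between lists, as do those of Hoxa7, Hoxa9 and Hoxa10, whose nearest peak is the one at Hoxa7, while the other HoxA genes and all HoxB genes differ between lists.

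Distances from start to nearest peak differed between clusters. Their median was 9.24 kb for HoxA, 62.4 kb for HoxB, 25.9 kb for HoxC and 98.5 kb for HoxD in the vehicle list. In the TGFβ 2 h list it was 7.06, 104, 26 and 98.5 kb in the same order. The most distant genes were Hoxb1 in the vehicle list and Hoxb8 in the TGFβ 2 h list, each at 131 kb. Measured from the gene's 5′ end alone, 32 and 31 of the 38 Hox genes lay over 10 kb from a peak, against 47.9% and 46.2% of protein-coding genes. By that measure the median over all protein-coding genes was 7.51 kb for vehicle and 6.06 kb for TGFβ 2 h. Over the 38 Hox genes it was 46.5 and 51.8 kb. The medians by cluster were instead taken from the nearest of all annotated starts of a gene, so they are not set against these values.

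**Figure D3:**
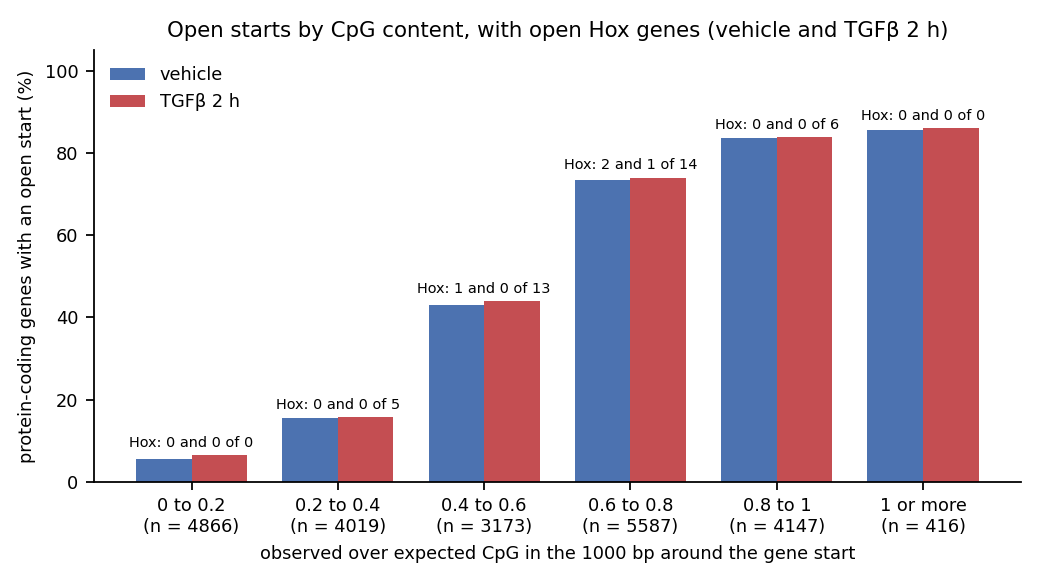
Share of protein-coding genes with an open start in the vehicle (blue) and TGFβ 2 h (red) list, by observed over expected CpG in the 1000 bp around the gene's 5′ end, with n genes below each bin and the number of open Hox genes printed above it. The share over all genes rises with CpG content to 85.6% and 86.1% in the highest bin, which holds 0 Hox genes. In the bin from 0.8 to 1 it is 83.7% and 83.8%, while 0 of 6 Hox genes are open there.

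The closed Hox starts ranged from CpG-poor, with an observed over expected ratio of 0.26 at Hoxd4, 0.29 at Hoxc4 and 0.32 at Hoxb4, to CpG-rich. In mammals, CpG-rich promoters are usually open in most cell types. A start was called CpG-island-like where the 1000 bp around the 5′ end had at least 55% GC and an observed over expected CpG ratio of at least 0.65. Of the 38 Hox genes, 15 met this, and none of the 15 was open in either list (upper Wilson limit 20.4%). The open share over the 7790 island-like genes was 79.4% for vehicle and 79.8% for TGFβ 2 h. Over the 14418 other protein-coding genes the open shares were 27.7% and 28.4%.

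The 15 were Hoxa4, Hoxa11, Hoxa13, Hoxb7, Hoxb9, Hoxc8, Hoxc9, Hoxc11, Hoxc12, Hoxc13, Hoxd1, Hoxd3, Hoxd8, Hoxd9 and Hoxd13. The ratio was 0.95 at Hoxa13 with 73.8% GC, 0.92 at Hoxa4 with 73.8% GC and 0.90 at Hoxd13 with 72.4% GC. Hoxa7 itself, at 0.64, fell just short of the limit at its 5′ end, although 2 of its 5 annotated starts met it. In the bin of ratios from 0.6 to 0.8, 2 of 14 Hox genes were open in the vehicle list (Hoxa3 and Hoxa7) and 1 in the TGFβ 2 h list, against 73.4% and 74% of all genes in that bin. The low share at Hox genes was thus seen within bins of CpG content as well. Counted over any annotated start, 20 Hox genes had an island-like start, and 19 of them were closed in both lists.

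**Figure D4:**
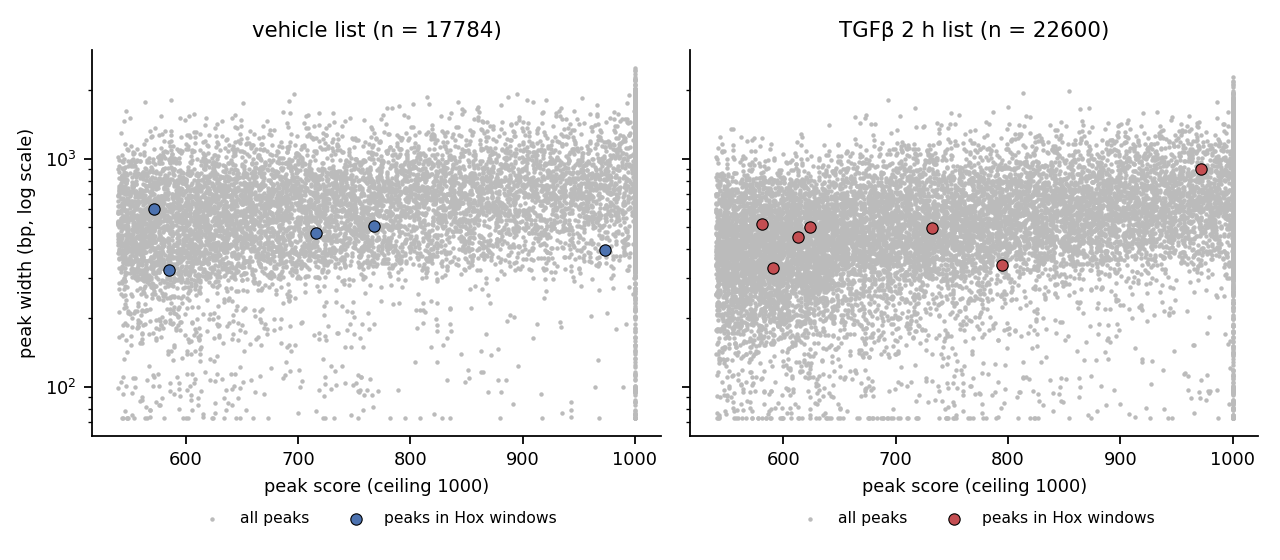
Width in bp (log scale) against score of every peak of the vehicle list (left) and the TGFβ 2 h list (right) in grey, with the Hox peaks in colour. No Hox peak reaches the ceiling score of 1000, and their scores run from 572 to 973 and from 581 to 972.

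The Hox peaks were of modest score and width. Their median score was 716 in the vehicle list and 624 in the TGFβ 2 h list, where the medians of the whole lists were 1000 and 927. None of the 5 and none of the 7 was at the score ceiling, which 53.2% and 44.3% of all peaks reached. The upper Wilson limits for such small counts were 43.4% and 35.4%. The median width was 473 and 499 bp, against 770 and 621 bp over the lists. Peaks covered 2.31 kb of the windows in the vehicle list (0.261%) and 3.54 kb in the TGFβ 2 h list (0.4%), where the lists covered 0.552% and 0.57% of the genome. The low share did not hold for HoxA, with 0.559% for vehicle and 1.36% for TGFβ 2 h. It was 0.292% and 0.183% for HoxB, 0.184% and 0.158% for HoxC, and 0 in both lists for HoxD.

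Per length, the windows held 5.65 peaks per Mb (exact Poisson 95% interval 1.83 to 13.2) in the vehicle list and 7.91 (3.18 to 16.3) in the TGFβ 2 h list. The genome had 6.96 and 8.84 peaks per Mb. By cluster, HoxA had 10.1 (1.22 to 36.4) and 25.2 (8.18 to 58.8), HoxB 7.3 and 3.65, HoxC 4.64 in both lists and HoxD 0 in both. The 500 kb on each side of the windows had 59 peaks in each list, or 14.8 per Mb (11.2 to 19). The difference between windows and surroundings was not tested.

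Most Hox peaks stood in one list alone. In the vehicle list 3 of 5 had no overlapping TGFβ 2 h peak (interval 23.1 to 88.2%), against 17.6% of the whole list. In the TGFβ 2 h list 5 of 7 had no overlapping vehicle peak (35.9 to 91.8%), against 33.7%. Between the first and last listed genes, without the flanks, each list held 4 peaks, 2 of them without a counterpart. When a score of at least the list's median was required, the Hox peak left was the TGFβ 2 h-only peak at Gm15051, with 0 vehicle peaks. With the TGFβ 2 h list shortened to the length of the vehicle list by score, it held 3 Hox peaks against 5 for vehicle, 1 of them without a counterpart against 3, so which list held more turned. A peak in one list alone was called there, and signal below the threshold of the other list was not analysed here. By the study's reporting summary the vehicle library was sequenced to more mapped reads, and the part of depth in these counts was not tested.

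The Hox peaks held none of the words searched in the 200 bp around each midpoint on both strands. These were the AP-1 words TGACTCA and TGAGTCA (each the reverse complement of the other), the SMAD palindrome GTCTAGAC and a consensus of CTCF. Also searched was the HOX-TALE word TGATTNAT, which Hox proteins and their cofactors bind together. In the vehicle list as a whole 8.97% of peaks held an AP-1 word, 0.169% the SMAD palindrome, 1.43% the HOX-TALE word and 2.11% the CTCF consensus. In the TGFβ 2 h list the shares were 15.1%, 0.332%, 2.21% and 1.64%. A shorter CTCF core, AGGGGGC or AGGTGGC, was added after the sequences were seen. It was found in 3 of 7 TGFβ 2 h Hox peaks (those at Gm15051, at 5730596B20Rik and in HoxC) and in 0 of 5 vehicle peaks, against 12.8% and 14.3% of the lists. The core at the HoxC site lies in the peaks of both lists, but outside the 200 bp around the vehicle midpoint, so at HoxC this difference comes from where the window falls.

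**Figure D5:**
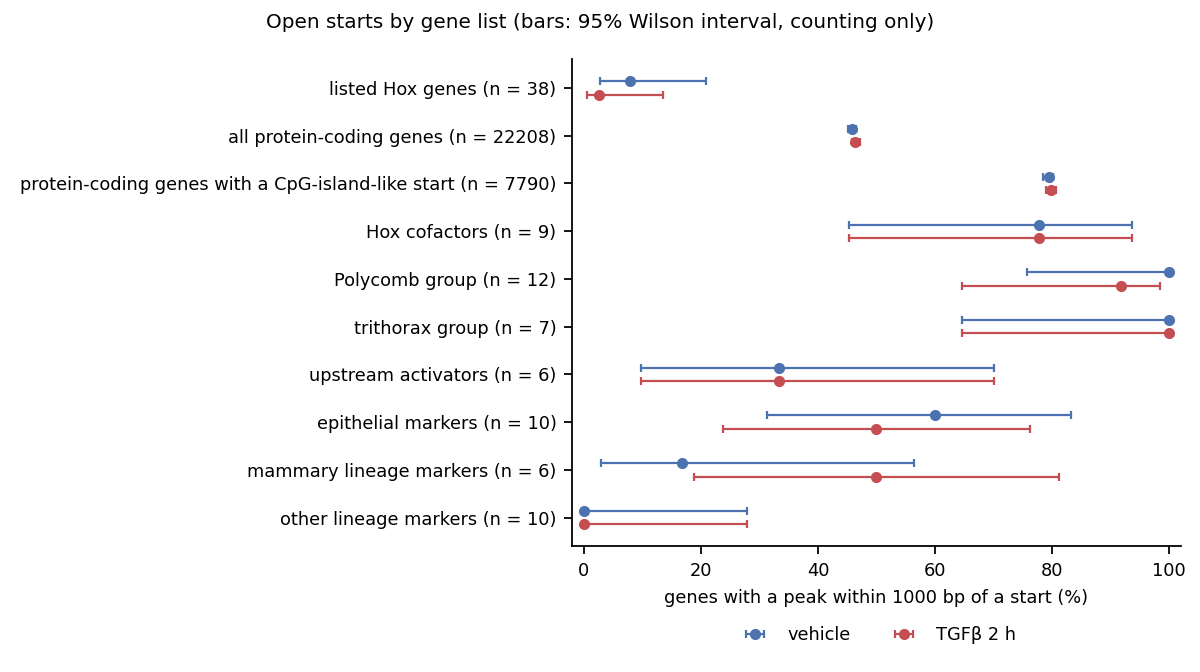
Share of genes with an open start in the vehicle (blue) and TGFβ 2 h (red) list for the listed Hox genes, all protein-coding genes, island-like genes and 7 gene lists, with 95% Wilson intervals that cover counting only. The Hox genes lie at 7.89% and 2.63%, below the shares of their cofactors and of the Polycomb and trithorax groups.

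Genes for partners and regulators of Hox proteins are read here against the 45.8% (vehicle) and 46.4% (TGFβ 2 h) of protein-coding genes with an open start. Of 9 cofactor genes of the Pbx, Meis and Pknox families, whose products bind DNA together with Hox proteins, 7 were open in both lists, and Pbx2 and Pknox2 in neither. Of 12 Polycomb genes, among them Ezh2, the enzyme that places the repressive mark, and its partners Eed and Suz12, all were open in the vehicle list and 11 in the TGFβ 2 h list. The exception was Pcgf2, open in the vehicle list alone. Of these 12 genes 11 had an island-like start, a class in which 79.4% and 79.8% of all genes were open. All 7 trithorax genes, with Mll1, Mll2 and Kmt2b as methyltransferases and Men1, Ash2l, Wdr5 and Rbbp5 as partners, were open in both.

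Among 6 genes for factors that switch on Hox clusters in embryos, the retinoic acid receptors Rara and Rarg were open in both lists, and Rarb and the caudal genes Cdx1, Cdx2 and Cdx4 in neither. Of 10 epithelial markers 5 were open in both lists (Cdh1, Krt8, Krt18, Krt19 and Esrp2), Grhl2 in the vehicle list alone, and Epcam, Cldn4, Cldn7 and Esrp1 in neither. Of 6 mammary lineage genes Gata3 was open in both lists, Elf5 and Esr1 in the TGFβ 2 h list alone, and Tfap2c, Foxa1 and Sox10 in neither. None of the 10 markers of blood, vessel, muscle, nerve, liver and islet cells was open in either list. So 4 of 10 epithelial markers had no peak at their starts in either list, and expression was not measured by these lists.

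The 6 miRNA genes of the clusters, Mir196b, Mir10a, Mir196a-1, Mir196a-2, Mir615 and Mir10b, had no open start in either list. Mir196b, which starts within the gene record of Hoxa9, was nearest to a peak at 8.26 kb in the vehicle list. Mir10b in HoxD was 99.5 kb away in both lists. The antisense transcripts Hoxa11as and Hoxb3os and the homeobox gene Evx2 beside Hoxd13 had none either.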

How the data were processed

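The series held 2 samples of NMuMG cells, grouped by title, with 1 deposited DNaseI-seq peak list each. According to the methods, the authors aligned reads to mm9 and used their ATAC-seq pipeline with DNaseI-seq options that are not stated, and the processing notes name MACS2 2.1.2 and deepTools. The deposited score is the authors' whole-number peak score, from 540 to a ceiling of 1000. It ranks peaks within a list only. The series text speaks of duplicates, but each list comes from merged reads. The labels give 50 bp reads and the methods a longer read, and the series design and the sample labels name different instruments. Read depth is not in the lists.

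Rows that repeat an interval were counted as 1 peak. What the repeats stand for is not stated. Peaks were set against NCBIM37 and GENCODE M1 (Python 3.11.15, pandas 2.3.3, scipy 1.17.1), with coordinates 1-based. Sharing took 1 bp of overlap. Hoxa3 has 2 gene records under 1 symbol and was counted as 1 gene. The annotation lists Tfap2c, Kmt2a and Kmt2b under older symbols. The named genes were the 38 Hox genes, other genes starting in the windows and the gene lists given. Members and lists were chosen with earlier results of these data known. The overlap functions were tested on simulated data. Intervals are 95% Wilson or exact Poisson and cover counting error only.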

Additional observations from a re-analysis of the deposited data

How the results depend on the processing

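Of 41 values under 11 other settings, 21 stayed within 1.5 times the main count or near the main length, and 20 moved. A minimum score at each list's own median left 0 vehicle and 1 TGFβ 2 h peak in the windows, 0 vehicle-only and 1 TGFβ 2 h-only peak, 0 open Hox starts in either list, and 0 and 0.897 kb covered. In rows rather than peaks the windows held 13 for vehicle and 19 for TGFβ 2 h, of which 8 and 14 had no counterpart. With the TGFβ 2 h list cut to the length of the vehicle list, it held 3 Hox peaks, 1 of them without a counterpart, over 1.74 kb, against 5, 3 and 2.31 kb for vehicle, so the order of the lists turned. Without the flanks each list held 4 peaks, 2 of them without a counterpart, so the lists no longer differed in these counts, and they covered 1.83 kb (vehicle) and 1.81 kb (TGFβ 2 h). With 250 bp on either side of a start, 1 Hox gene (Hoxa7) was open in the vehicle list. With gene 5′ ends alone Hoxa6 and Hoxa7 were open there, and with starts of protein-coding transcripts alone Hoxa3 and Hoxa7. Dropping peaks under 150 bp, joining peaks, a reciprocal overlap of 50% and counting peaks up to 1000 bp apart as shared moved no count by over 1.5 times. The cause of these changes was not tested beyond what each setting removes or counts. No paired analysis was possible because there was 1 list per condition and no test. With so few Hox peaks, 1 peak more or less changes each share, and depth is unknown from the lists.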

Other observations

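Other homeobox and paired-box families, a list chosen after the Hox values were seen, held more open starts than the Hox clusters in these lists. Of 29 genes of the Dlx, Irx, Lhx and Pax families, 8 were open in the vehicle list (27.6%, Wilson 95% interval 14.7 to 45.7%) and 6 in the TGFβ 2 h list (20.7%, 9.85 to 38.4%). The shares over all protein-coding genes were 45.8% and 46.4%, above both, and the intervals overlapped those of the Hox genes. Open in both were Dlx3 and Dlx4, which act in skin and placenta, and Irx5, Pax2 and Pax9. Dlx1, Pax3 and Pax8 were open in the vehicle list alone and Lhx6 in the TGFβ 2 h list alone. By family, 3 of 6 Dlx, 1 of 6 Irx, 0 of 8 Lhx and 4 of 9 Pax genes were open in the vehicle list. Of these 29 genes 17 had an island-like start, against 15 of 38 Hox genes. These are descriptions of 1 list per condition, with no test.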
